A study of Mus musculus with 5 samples.

Results

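CTCF peaks were examined at the 78 mouse genes of the mitochondrial ribosome, taken as all protein-coding RefSeq genes on mm10 whose symbol is Mrpl or Mrps followed by a number. They are 78 of 21779 protein-coding genes, 49 with Mrpl and 29 with Mrps symbols, on 17 chromosomes. ChIP-seq for CTCF, in which DNA bound by a protein is precipitated and sequenced, was done in NIH3T3 mouse fibroblasts: 2 libraries came from cells given doxycycline for 6 h at a labelled 500 ng/µL, 2 from cells without doxycycline, and 1 was an input without doxycycline. The lines used for all 5 libraries carried H2B-mCherry, the rtTA3G transactivator and CDX2 under the doxycycline-responsive TRE3G promoter. Whether a line is 1 clone is not stated in the labels. The values are 1 list of 22756 peak intervals merged over the cells with and without doxycycline, with no height and no sample name. The effect of CDX2 induction, any spread between replicates and the depth behind a peak were therefore not analysed here. The list holds positions and no expression values, so the fibroblast label was not checked against marker genes.

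The mitochondrial ribosome translates the few proteins encoded by mitochondrial DNA, which are core subunits of the respiratory chain. All of its proteins are encoded in the nucleus, made on cytosolic ribosomes and imported, and the genes are transcribed in nearly every cell type. CTCF is a zinc finger protein that binds a long, G-rich motif at insulators, at loop anchors and at a subset of promoters. Mrpl genes are named for the large and Mrps genes for the small ribosomal subunit, although Mrps18a and Mrps30 encode proteins found in the large subunit. The product of Mrps36 is now assigned to the 2-oxoglutarate dehydrogenase complex.

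Of the 78 genes, 10 had a CTCF peak lying over a RefSeq promoter window, the 250 bases before and 50 after an annotated start. The 7 windows below are shown because most of their bases lay under a peak. They are from RefSeq GRCm38.p6, the assembly behind mm10, read 5′ to 3′ with the annotated start at base 251. Capitals mark matches, on either strand, to a CTCF core of 12 letters with 5 free positions, to the NRF1 motif of 10 letters with 1 free position and to the ETS motif CCGGAAG. NRF1 and the ETS factor GABP are known activators of nuclear genes for mitochondrial proteins.
Mrpl17, chr7:105811038-105811337, minus strand: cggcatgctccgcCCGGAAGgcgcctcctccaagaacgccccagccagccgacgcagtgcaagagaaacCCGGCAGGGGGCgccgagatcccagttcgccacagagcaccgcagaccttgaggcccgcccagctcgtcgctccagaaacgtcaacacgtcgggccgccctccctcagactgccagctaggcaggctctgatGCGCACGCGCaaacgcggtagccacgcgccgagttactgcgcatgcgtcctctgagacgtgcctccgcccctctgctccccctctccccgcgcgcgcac
Mrpl34, chr8:71464676-71464975, plus strand: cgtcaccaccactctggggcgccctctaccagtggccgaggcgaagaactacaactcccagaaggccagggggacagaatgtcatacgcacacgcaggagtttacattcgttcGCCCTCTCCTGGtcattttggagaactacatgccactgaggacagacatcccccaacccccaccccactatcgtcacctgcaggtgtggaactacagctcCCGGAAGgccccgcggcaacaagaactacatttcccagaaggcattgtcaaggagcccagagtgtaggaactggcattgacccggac
Mrpl39, chr16:84735195-84735494, minus strand: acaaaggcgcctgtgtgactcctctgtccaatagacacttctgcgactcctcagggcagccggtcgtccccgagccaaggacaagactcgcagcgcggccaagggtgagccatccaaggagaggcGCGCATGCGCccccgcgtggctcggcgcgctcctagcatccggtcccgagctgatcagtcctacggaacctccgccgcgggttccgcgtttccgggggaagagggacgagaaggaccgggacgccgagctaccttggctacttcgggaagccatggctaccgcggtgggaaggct
Mrps16, chr14:20393441-20393740, minus strand: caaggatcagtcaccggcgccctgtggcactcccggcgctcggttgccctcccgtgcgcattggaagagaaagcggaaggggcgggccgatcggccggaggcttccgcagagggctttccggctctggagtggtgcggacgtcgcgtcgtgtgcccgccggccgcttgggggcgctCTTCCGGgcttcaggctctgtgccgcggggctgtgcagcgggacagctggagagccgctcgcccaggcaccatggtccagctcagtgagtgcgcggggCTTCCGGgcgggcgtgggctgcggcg
Mrps26, chr2:130563507-130563806, plus strand: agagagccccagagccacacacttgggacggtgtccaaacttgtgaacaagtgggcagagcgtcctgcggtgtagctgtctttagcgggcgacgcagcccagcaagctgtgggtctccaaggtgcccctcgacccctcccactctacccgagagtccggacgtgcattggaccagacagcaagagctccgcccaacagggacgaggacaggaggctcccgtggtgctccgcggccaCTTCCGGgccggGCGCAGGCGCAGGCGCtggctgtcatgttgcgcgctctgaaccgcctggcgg
Mrps33, chr6:39810887-39811186, minus strand: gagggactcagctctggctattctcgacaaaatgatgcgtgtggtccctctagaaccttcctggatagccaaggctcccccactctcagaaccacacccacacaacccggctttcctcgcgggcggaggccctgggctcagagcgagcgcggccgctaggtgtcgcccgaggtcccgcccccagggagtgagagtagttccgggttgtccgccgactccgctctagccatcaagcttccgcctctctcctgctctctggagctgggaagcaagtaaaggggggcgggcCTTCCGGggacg
Mrps2, chr2:28467816-28468115, plus strand: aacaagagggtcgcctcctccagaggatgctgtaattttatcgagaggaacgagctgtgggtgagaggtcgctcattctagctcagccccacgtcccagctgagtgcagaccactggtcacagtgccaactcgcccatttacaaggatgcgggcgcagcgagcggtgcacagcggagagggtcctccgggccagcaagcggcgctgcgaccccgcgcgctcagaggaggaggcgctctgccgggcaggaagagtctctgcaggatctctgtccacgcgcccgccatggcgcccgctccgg
In the Mrpl17 window the CTCF core stood at bases 70 to 81, an ETS match at 14 to 20 and an NRF1 match at 202 to 211. In the Mrpl34 window the core stood on the other strand at bases 114 to 125 and an ETS match at 214 to 220. The Mrpl39 window held an NRF1 match at bases 126 to 135. The Mrps16 window held ETS matches at 177 to 183 and 275 to 281. The Mrps26 window held overlapping NRF1 matches at 249 to 258 and 255 to 264, across the annotated start, and an ETS match at 237 to 243. These Mrps26 matches lay past the end of the peak, which covered the first 191 bases of the window. The Mrps33 window held an ETS match at 289 to 295, and the Mrps2 window held no exact match to any of the 3 motifs. The peaks covered 300 of the 300 bases at Mrps33 and Mrps2, 275 at Mrps16, 251 at Mrpl34, 214 at Mrpl39, 211 at Mrpl17 and 191 at Mrps26.

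Among the windows of these genes, the CTCF core letters were in 2 of 11 under a peak (18.2%, exact 95% interval 2.28 to 51.8%). These were the windows of Mrpl17 and Mrpl34. The letters were also in 8 of 64 windows without a peak (12.5%, 5.55 to 23.2%). Over all promoter windows of the same length, which are not limited to protein-coding genes, 464 of 1179 under a peak held them (39.4%). Without a peak 2364 of 31672 did (7.46%), and among all windows 2828 of 32851 (8.61%). The interval for the 11 windows includes both this 39.4% and the 12.5% of the set's windows without a peak. With a further G required in 1 of the free positions, Mrpl17 alone remained among the 11 windows, against 309 of 1179 (26.2%) over all windows under a peak. The 11 windows belong to 10 genes, because Mrps16 has overlapping windows for 2 annotated starts. A window counted as under a peak if it shared any base with one, down to 68 of 300 bases at Mrpl23. Peak bases outside the windows were not searched. A match is a run of letters and not a measured site. Only exact matches were counted, so a window without one can still hold a form of the motif that differs by a letter.

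Gene-end peaks were found at 17 of the 78 genes, and peaks in the gene or its 10 kb flanks at 53. A gene-end peak is one whose midpoint lies within 1 kb of either end of the gene. The share was 21.8% (exact 95% interval 13.2 to 32.6%), against 12% of all protein-coding genes and 13.3% of other protein-coding genes of the same length classes. The share with a peak in the gene or its 10 kb flanks was 67.9% (56.4 to 78.1%), against 50.8% of all protein-coding genes and 46.9% in the same length classes. Cytosolic ribosomal protein genes had a gene-end peak at 34 of 87 (39.1%, 28.8 to 50.1%, against 12.3% in their length classes) and a peak in the gene or its 10 kb flanks at 61 (70.1%, 59.4 to 79.5%, against 39.1%). In point values the genes for the mitochondrial ribosome lay between the cytosolic set and genes of their own length at gene ends. In the wider window their share lay near that of the cytosolic set. The difference from genes of the same length there was 21.1 percentage points, against 31.0 for the cytosolic set. At gene ends, however, the interval of the mitochondrial set includes the 13.3% of the same length classes and overlaps the cytosolic interval. The differences were not tested. With only peaks at or above the median width the gene-end difference from genes of the same length was 3.99 percentage points, and with ends within 500 bp it was 5.50, in place of 8.48. The intervals cover the counting of genes only and treat genes as independent, although neighbours can share a peak, as Mrpl46 and Mrps11 do.

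**Figure D1:**
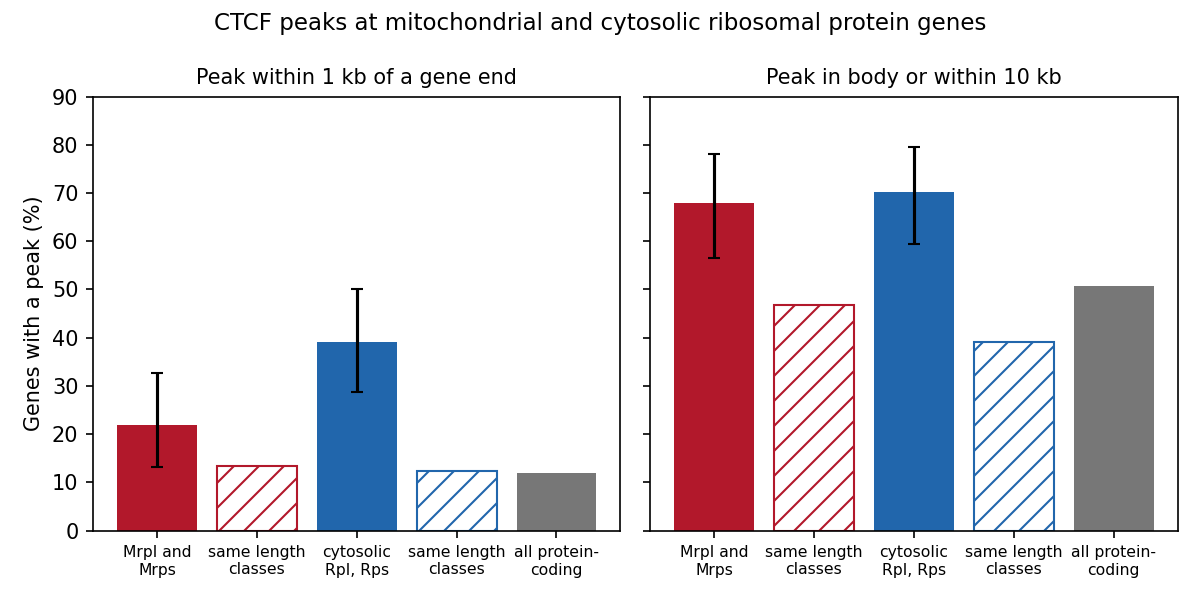
Percent of genes with a CTCF peak midpoint within 1 kb of a gene end (left) and in the gene or its 10 kb flanks (right). Filled bars are Mrpl and Mrps genes (n = 78), cytosolic ribosomal protein genes (n = 87) and all protein-coding genes (n = 21779), hatched bars are other protein-coding genes in the same length classes, and error bars are exact 95% binomial intervals. The Mrpl and Mrps bars stand at 21.8% and 67.9%, above the hatched bars at 13.3% and 46.9%.

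The peaks nearest to an end lay at annotated starts. Strand was known for 69 of the 78 genes. Of these, 12 had a peak within 1 kb of the start (17.4%, exact 95% interval 9.32 to 28.4%). The share was 7.68% of 17492 protein-coding genes with strand and 8.24% in the same length classes. Within 1 kb of the far end, 5 of the 69 had one (7.25%, 2.39 to 16.1%), against 4.64% of the protein-coding genes with strand. Mrpl34, whose body is only 0.828 kb long, counted at both ends with 1 peak. Of the 12 peaks at starts, 10 had their midpoint upstream and 2 downstream (83.3% upstream). Over all protein-coding genes with strand, 851 were upstream and 529 downstream (61.7%). The upstream share of the set rests on 12 peaks, has no interval here, and its difference was not tested. Starts here are the outermost ones, and the downstream peak at Mrps16 lay at -66.5 bp from an inner annotated start. The median position of the 12 peaks was -159 bp relative to the start, with 8 of them within 250 bp of it. The 10 genes with a peak over a promoter window were 14.5% (7.17 to 25.0%) of the 69, against 4.83% of all protein-coding genes in the promoter table. Apart from the 8.24%, these references were not matched on length, and none was matched on neighbouring genes. These tallies rest largely on the same genes and are not independent of one another.

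**Figure D2:**
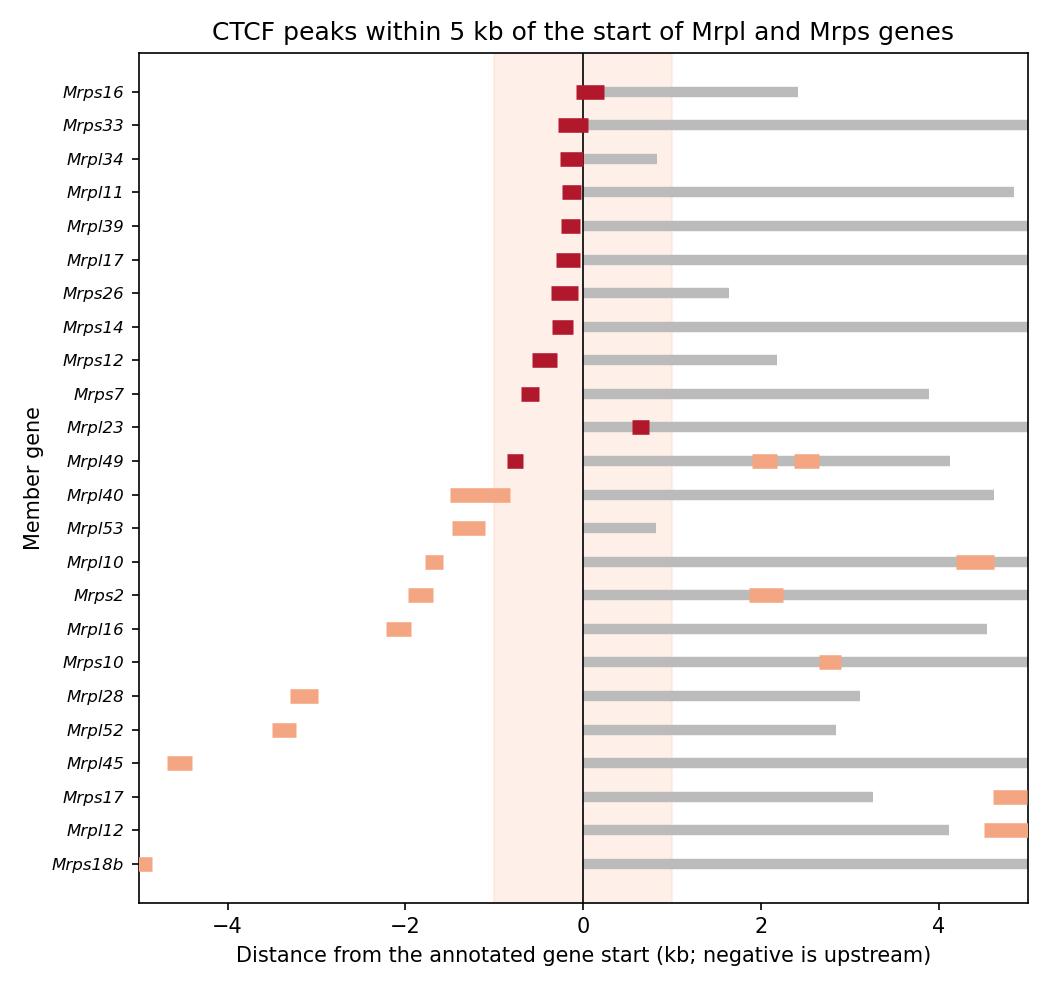
Map of CTCF peaks within 5 kb of the annotated start for the 24 Mrpl and Mrps genes with known strand and such a peak. The horizontal axis is the distance from the start in kb with upstream negative, grey bars are gene bodies, dark red bars are peaks with a midpoint within 1 kb and light bars are other peaks. The start is the outermost one of each gene. The dark bars lie mostly just left of it, with Mrps16 and Mrpl23 on the right.

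Among the small-subunit genes with a peak at the start, the closest was Mrps16, which encodes the homologue of a bacterial small-subunit protein. Its peak of 318 bp at chr14:20393398-20393715 had its midpoint 77.5 bp inside the gene, counted from the outermost start. From the inner annotated start, that of the window printed above, the midpoint lay at -66.5 bp. Mrps33, a subunit without a bacterial homologue, had a peak of 341 bp at chr6:39810880-39811220, centred 114 bp upstream. Mrps26, also without one, had a peak of 300 bp at chr2:130563398-130563697, 209.5 bp upstream. The peak of Mrps14, which encodes a protein of the subunit head, at chr1:160194865-160195103, lay 231 bp upstream. Farther out were Mrps12, whose product lines the decoding centre, at 431.5 bp upstream (chr7:28742114-28742391), and Mrps7, whose product is part of the subunit head, at 599.5 bp upstream (chr11:115603439-115603642). In all 6 genes the peak interval was between 204 and 341 bp wide, a range that spans the median of the whole list, 262 bp.

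Among the large-subunit genes, Mrpl11, whose product forms the base of the stalk that binds translation factors, had a peak centred 131 bp upstream of its outermost start (chr19:4961912-4962130). Mrpl34, a homologue of a bacterial large-subunit protein, had one at the same distance of 131 bp (chr8:71464664-71464926). Mrpl39, without a bacterial homologue, had a peak 145.5 bp upstream (chr16:84735281-84735498). Mrpl17, homologous to a bacterial large-subunit protein, had one 172 bp upstream (chr7:105811127-105811391). Mrpl49 had its nearest peak 765.5 bp upstream (chr19:6058430-6058611), the narrowest of the gene-end peaks at 182 bp. Mrpl23, which lies in the imprinted region of H19 and Igf2 and whose product sits at the mouth of the exit tunnel, had a peak 645.5 bp downstream of its outermost start (chr7:142533014-142533211). That peak was 80.5 bp downstream of the start of the promoter table, which lies farther into the gene.

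The remaining gene-end peaks lay at far ends or at a gene of unknown strand. Mrpl22, which encodes a protein of the exit tunnel wall, had a peak 235 bp past its far end (chr11:58179681-58179949). Mrpl12, whose product forms the flexible stalk and also binds the mitochondrial RNA polymerase, had the widest of the gene-end peaks, 597 bp, at 691 bp past its far end (chr11:120489147-120489743). The far-end peak of Mrps21 lay 599.5 bp outside the gene (chr3:95861925-95862144), and that of Mrpl21 625.5 bp inside it (chr19:3292020-3292403). Mrpl38, for which no strand was at hand, had a peak of 366 bp at 253.5 bp outside its end of higher coordinate (chr11:116138939-116139304). The 17 gene-end peaks had a median width of 265 bp.

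The 1 kb limit divides a continuous range. The outermost genes inside it were Mrpl12 at 691 bp and Mrpl49 at 765.5 bp. Just outside it, 10 genes had their nearest peak 1 to 2 kb from an end, from Mrpl40 at 1161 bp, Mrpl19 at 1215.5 bp and Mrpl44 at 1233 bp to Mrpl10 at 1677.5 bp and Mrps2 at 1833 bp. Mrps2 shows what the gene-end rule misses. Its RefSeq promoter window starts from a transcript start 2115 bp inside the gene-table start, and a peak of 382 bp (chr2:28467814-28468195) covered that whole window, with its midpoint at -61.5 bp from the inner start.

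The peaks of these genes lay mainly outside the gene bodies. Of 81 pairs of a gene and a peak in its body or within 10 kb, 63 were in flanks and 18 in bodies, from 80 distinct peaks. Flanks held 0.808 peaks per gene (exact 95% Poisson interval 0.621 to 1.03), against 0.560 in other protein-coding genes of the same length classes. Bodies held 0.231 per gene (0.137 to 0.365), against 0.266, and 15 genes had a body peak (19.2%), against 19.1% in the same length classes and 29.5% of all protein-coding genes. Cytosolic ribosomal protein genes had 0.345 peaks per body (0.233 to 0.492), against 0.108 in their length classes. Their bodies are shorter, with a median length of 3.17 kb against 7.69 kb for the mitochondrial set and 17.2 kb for all protein-coding genes.

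The excess over all protein-coding genes was largest next to the gene. This reference was not matched on length. In the 10 kb flanks all protein-coding genes had 0.491 peaks per gene, against 0.560 in the length classes of the set. Within 1 kb outside the body, Mrpl and Mrps genes had 8.97 peaks per 100 kb of flank (exact 95% Poisson interval 4.91 to 15.1, 14 peaks), against 3.86 for all protein-coding genes. From 1 to 2.5 kb they had 5.56 (2.96 to 9.50, 13 peaks), against 2.46. From 2.5 to 5 kb they had 3.33 (1.77 to 5.70), against 2.42, and from 5 to 10 kb 2.95 (1.87 to 4.42), against 2.19. Beyond 2.5 kb the intervals of the Mrpl and Mrps genes therefore include the value of all protein-coding genes. Cytosolic ribosomal protein genes had 13.2 peaks per 100 kb (8.38 to 19.8) within 1 kb and 2.30 (0.844 to 5.00) from 1 to 2.5 kb. Farther out they had 3.45 (1.93 to 5.69) from 2.5 to 5 kb and 4.02 (2.80 to 5.60) from 5 to 10 kb, the last above the 2.19 of all protein-coding genes by more than its counting interval.

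**Figure D3:**
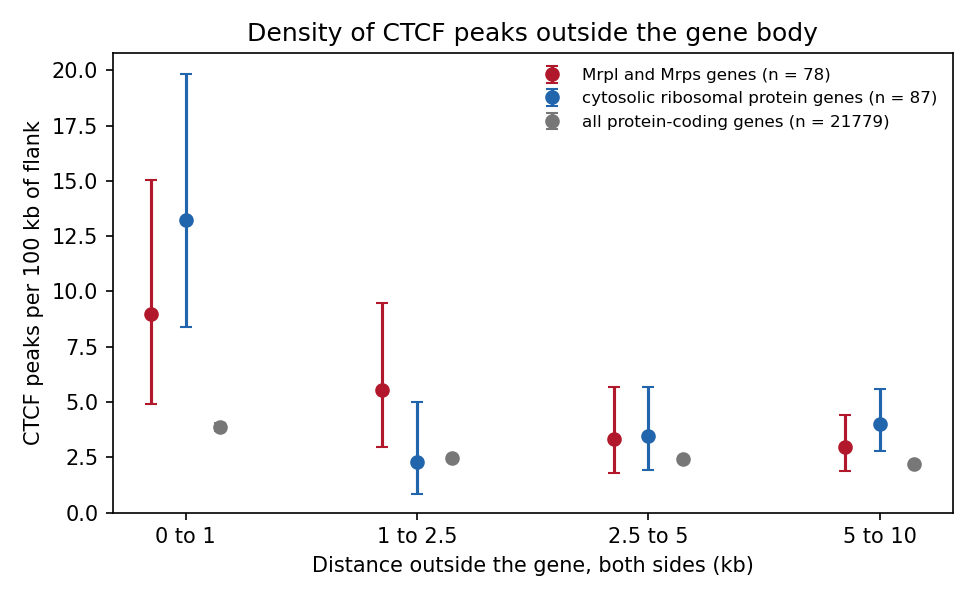
CTCF peaks per 100 kb of flank, both sides added, by distance outside the gene in kb, for Mrpl and Mrps genes (red), cytosolic ribosomal protein genes (blue) and all protein-coding genes (grey). Points are densities and bars exact 95% Poisson intervals for counting error. The red points fall with distance, 8.97, 5.56, 3.33 and 2.95, and the grey points run from 3.86 to 2.19.

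A single peak in the gene or its 10 kb flanks was the most frequent number, and few genes had many. In that window, 32 genes had 1 peak, 15 had 2, 5 had 3 and 1 had 4. In percent, 41.0% had exactly 1, against 25.6% of other genes of the same length classes, while 1.28% had 4 or more, against 3.50%. The mean was 1.04 peaks per gene (exact 95% Poisson interval 0.825 to 1.29), against 0.826 in the same length classes and 1.02 over all protein-coding genes, which are longer. With only peaks at or above the median width the difference from the same length classes was 0.132 peaks per gene, in place of 0.213. Mrpl49 had 4 peaks, 2 of them in its body of 4.13 kb. Mrpl15, Mrpl23, Mrps10, Mrps16 and Mrps23 had 3 each. Among these, Mrpl15, Mrps10 and Mrps23 had no gene-end peak, with their nearest peaks 3028.5, 2778 and 4913.5 bp from an end.

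**Figure D4:**
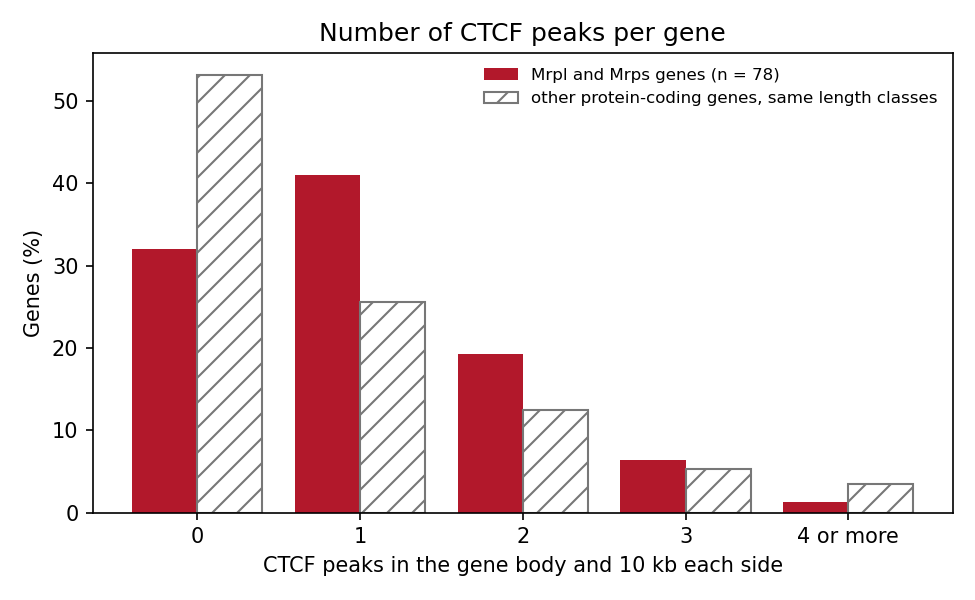
Percent of genes by the number of CTCF peaks in the body and 10 kb each side, for Mrpl and Mrps genes (filled, n = 78) and other protein-coding genes weighted to the same length classes (hatched). The filled bar is lower than the hatched bar at 0 peaks, 32.1% against 53.1%, and higher at 1 peak, 41.0% against 25.6%.

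At the other extreme, 25 genes had no peak in the gene or these flanks. The nearest peak of these lay 11.4 to 411 kb from the closer end, with a median of 29.1 kb. The farthest was Mrpl1, which encodes the protein of the mobile stalk beside the tRNA exit site and lay 411 kb from the nearest peak (chr5:96209498-96266727). It was followed by Mrpl3, a core protein of the large subunit, at 205 kb (chr9:105053268-105077466), Mrps18c at 107 kb, Mrpl57 at 99.8 kb and Mrps6 at 97.6 kb. Over all 78 genes the median distance to the nearest peak was 4.95 kb (quartiles 1.25 and 18.8 kb), against 2.50 kb for cytosolic ribosomal protein genes and 13.3 kb for all protein-coding genes. Read depth at places without a listed peak was not analysed here.

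Shares are given by Mrpl and Mrps symbol, which is not quite the division into subunits, and by bacterial homology. Gene-end peaks were at 10 of 49 Mrpl genes (20.4%, exact 95% interval 10.2 to 34.3%) and at 7 of 29 Mrps genes (24.1%, 10.3 to 43.5%). In the wider window the shares were 69.4% (54.6 to 81.7%) for Mrpl and 65.5% (45.7 to 82.1%) for Mrps. Of the 48 genes with a bacterial homologue 12 had a gene-end peak (25.0%, 13.6 to 39.6%), against 5 of the 30 without one (16.7%, 5.64 to 34.7%). The intervals overlap in each pair, and the differences were not tested.

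By chromosome, 3 of the 5 genes on chromosome 19, 3 of the 6 on chromosome 7 and 4 of the 11 on chromosome 11 had a gene-end peak, which makes 10 of the 17. These are the chromosomes with the most gene-end peaks of the set. In their length classes, taken here over all chromosomes, 11.7%, 13.9% and 14.2% of other genes had one. The exact 95% intervals for chromosomes 7 (11.8 to 88.2%) and 11 (10.9 to 69.2%) include these shares. That for chromosome 19 (14.7 to 94.7%) does not, but these chromosomes were picked by the same counts out of 17 with genes of the set. The intervals take no account of that choice, so no conclusion is drawn from the exclusion. A peak in the gene or its 10 kb flanks was at all 5 genes on chromosome 19 (against 39.5% in their length classes), all 6 on chromosome 7 (against 50.5%) and 9 of 11 on chromosome 11 (against 47.0%). On chromosomes 4, 5, 9 and 13 no gene had a gene-end peak, and the wider window held a peak at 1 of 4, 1 of 4, 1 of 3 and 2 of 5 genes, against 49.8%, 48.9%, 52.0% and 48.5%. These counts are small, and the intervals for the 4 low chromosomes include the shares in their length classes. On chromosome 17, none of 8 genes had a gene-end peak (exact 95% interval 0 to 36.9%), while 6 had a peak in the gene or its flanks. Without chromosome 11, 19.4% of 67 genes had a gene-end peak, against 12.5% of genes of the same length classes, and with all chromosomes the 21.8% stood against 13.0% of genes of the same chromosome and length.

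Genes of the mitochondrial ribosome often stand next to another gene, and CTCF peaks stood both at such shared ends and at free ones. Of the 78 genes, 50 (64.1%) had the end of another annotated gene within 1 kb of one of their own, against 64.4% of cytosolic ribosomal protein genes and 34.6% of all protein-coding genes. Of the 69 starts of known strand, 38 (55.1%) had such a neighbour, against 23.9% over all. Peaks were at 6 of the 38 starts with a neighbour (15.8%, exact 95% interval 6.02 to 31.3%) and at 6 of the 31 without one (19.4%, 7.45 to 37.5%). Over all protein-coding genes the starts with a neighbour had a peak more often, 10.5%, against 6.80% without. At the far ends of the Mrpl and Mrps genes, peaks were at none of 15 with a neighbour (0 to 21.8%) and at 5 of 54 without (9.26%, 3.08 to 20.3%), against 9.02% and 3.76% over all protein-coding genes. The interval for the 15 ends includes the share over all genes. With length and a shared end both taken into account, the gene-end share of 21.8% stood against 16.1%, a difference of 5.74 percentage points in place of 8.48.

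The 6 genes with a peak at a shared start had varied partners. Mrps12 faces Sars2, which encodes the mitochondrial seryl-tRNA synthetase, with the starts 136 bp apart, and the peak lay 431.5 bp from Mrps12 and 295.5 bp from Sars2. Both products act in mitochondrial translation. Mrpl49 faces Fau, which encodes a protein of the cytosolic small subunit fused to a ubiquitin-like protein, at 192 bp. Mrps7 faces Gga3, a trafficking adaptor gene, at 377 bp, Mrpl34 faces Abhd8 at 219 bp, and Mrps26 faces the non-coding gene 4930473A02Rik at 8 bp. At Mrps16 the neighbouring end belongs to Cfap70, a cilium gene on the same strand. The only pair inside the set, Mrpl46 and Mrps11, has starts 42 bp apart and no peak at either. They share a peak at chr7:78791552-78791833, in the body of Mrps11 and 1295.5 bp from its far end.

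The promoter letters of the set differed from those of promoters at large more for ETS, NRF1 and YY1 than for the CTCF core. The core was in 10 of 75 windows (13.3%), against 8.61% of all windows. All windows here cover 27025 genes, more than the 17492 protein-coding genes with strand, so non-coding genes are among them. ETS letters were in 26 of 75 windows (34.7%, exact 95% interval 24.0 to 46.5%), against 34.2% of cytosolic ribosomal protein windows and 8.86% of all windows. NRF1 letters were in 13 (17.3%, 9.57 to 27.8%), against 7.59% and 4.60%. YY1 letters, AANATGGCG, were in 11 (14.7%, 7.56 to 24.7%), against 12.7% and 2.38%. YY1 is a zinc finger factor of promoters. Of the 11 windows under a CTCF peak 0 held YY1 letters (0 to 28.5%), against 11 of the set's 64 windows without a peak (17.2%). The interval for the windows under a peak includes that share and the 4.16% of all windows under a peak. The windows of the set had a median GC content of 58.7% and 21 CpG dinucleotides, against 52.7% and 7 over all windows, so base composition moves with these shares and its part in them was not tested.

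Lists of other genes of mitochondrial translation are given from the nearest in function outward. Of 5 mitoribosome genes with other symbols, Gadd45gip1 with 2 peaks and Aurkaip1 with 1 had a gene-end peak, Dap3 had 1 body peak, and Chchd1 and Ptcd3 had none within 10 kb. That makes 40% with a gene-end peak (exact 95% interval 5.27 to 85.3%), against 10.9% in their length classes, and 60% with one in the wider window (14.7 to 94.7%), against 41.5%. Of 38 translation and assembly factors 5 had a gene-end peak (13.2%, against 13.6% in their length classes) and 17 a peak in the gene or its 10 kb flanks (44.7%, against 51.7%). Mrm1 and Mrm2, both 2′-O-methyltransferases of mitochondrial ribosomal RNA, led with 4 peaks each, ahead of Lrpprc, Mtfmt and Tfb1m with 2. Among 22 genes for mitochondrial aminoacyl-tRNA synthetases and the amidotransferase, gene-end peaks were at 4 (18.2%, against 12.9% in their length classes), and 12 had a peak in the wider window (54.5%, against 56.0%), with 2 peaks each at Aars2, Cars2, Fars2, Gatb and Lars2. Over the 65 genes of these lists 49.2% had a peak in the gene or its 10 kb flanks (exact 95% interval 36.6 to 61.9%), against 52.4% in the same length classes. Of the cytosolic ribosomal protein genes Rpl3 and Rpl38 had 5 peaks each and Rpl12, Rpl22, Rpl32, Rpl3l and Rplp2 had 4. Of these, Rpl3l and Rplp2 had no gene-end peak.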

How the data were processed

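Chromatin immunoprecipitation of CTCF, with Drosophila chromatin as spike-in per the labels' protocols, was sequenced as pairs of 37 nt reads. Named in the submitters' processing notes are the builds mm10 and dm6 and the tools MACS2, Picard and STAR, without roles or versions. The deposited file is a list of peak start and end positions merged over conditions, with no normalisation, height or score, so the depth per sample is unknown. No column belongs to a sample and no test between samples was made.

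Gene starts and ends came from RefSeq GRCm38.p6, from which 340 genes placed below 3 Mb and any not placed on an assembled nuclear chromosome were dropped, leaving 49603 genes, 21779 of them protein-coding. Strand came from the RefSeq promoter table, which held 69 of the 78 genes. By symbol, 6 pseudogenes of the set, copies of Mrpl23, Mrpl27, Mrpl48 and Mrps36, were left out. Reads at these parent genes may be uncertain, since the placing of reads between copies was not checked. The cytosolic list takes in paralogues.

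Peaks were assigned by midpoint, with coordinates counted from 1. Comparison values are means over other protein-coding genes in 10 length classes, weighted by the members in each class. Shares carry exact Clopper-Pearson and counts exact Poisson 95% intervals, computed with Python 3.11.15 and scipy 1.17.1. Counting was tested on simulated peaks. Named genes were all members with a gene-end peak, the 5 members with most peaks and the 5 farthest from one, up to 4 of each further list with most peaks (ties kept), and genes sharing a gene-end peak; others named were chosen after their values were seen. The members and lists were chosen with earlier results of these data known.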

Additional observations from a re-analysis of the deposited data

How the results depend on the processing

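Over 33 alternatives to the 3 differences from length-matched genes, 31 stayed within the counting interval of the original value. For the gene-end share and for peaks per gene that interval includes no difference, so staying within it says little there. The alternatives reuse the same genes and peak list and are not independent of one another. The gene-end difference of 8.48 percentage points stayed positive in 13 of 13 alternatives, from 3.99 when peaks narrower than the median were dropped to 12.4 with ends within 2.5 kb. For peaks in the gene or its 10 kb flanks the gene body alone changed the outcome: the difference in peaks per gene was -0.0348, in place of 0.213, and the difference in the share of genes was 0.109 percentage points, in place of 21.1. By construction that setting leaves out the flanks, where the excess lay. In the other alternatives the difference in peaks per gene ran from 0.132 to 0.272 and that in the share from 16.0 to 24.4, lowest without the narrower peaks and highest with genes also matched on the number of genes within 100 kb. The match that adds chromosome 11 was chosen after seeing the data and gave 9.43 percentage points, 0.250 peaks per gene and 23.3 percentage points. No paired analysis was possible because no peak is tied to a sample, and for the same reason no replicate could be left out. A stricter threshold of the peak caller was not run, since the list has no score.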
